A study of Mus musculus with 24 samples.

Results

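The CXC chemokines are small secreted proteins that draw leukocytes along a gradient. The 6 described here, Cxcl1, Cxcl2, Cxcl3, Cxcl9, Cxcl10 and Cxcl16, were taken by name from the 12767 genes of the deposited table and followed over all 8 groups of the study. All 6 passed the filter on low values (a mean of at least 10 normalised counts over the libraries). The choice did not use their measured values as a rule, but it was made with earlier results of these data known.

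CXCL1, CXCL2 and CXCL3 bind the receptor CXCR2 and attract neutrophils, and their genes are classic targets of NF-kB, which Toll-like receptors activate through the adaptor MyD88. CXCL9 and CXCL10 bind CXCR3 and attract activated T cells and NK cells, and their genes respond to interferons. CXCL16 is made as a membrane-anchored protein, binds CXCR6 and also acts as a scavenger receptor, and dendritic cells and macrophages are known sources of it.

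The libraries were messenger RNA profiles of cells purified with CD11c beads from the mesenteric lymph nodes, which drain the gut, of mice with subcutaneous MC38 tumours, a mouse colon carcinoma line. The strain was C57BL/6, all mice were recorded as female and 6 to 8 weeks old, and the genotypes were wild type and Myd88 knockout, with no cell type restriction of the knockout recorded. In each genotype 3 libraries came from mice given control IgG, 3 from mice given an antibody against PD-1 (a T cell checkpoint receptor), 3 from mice given live LGG (the oral bacterium Lactobacillus rhamnosus GG) and 3 from mice given anti-PD-1 with LGG, called the combination here. Mice were injected with 1000000 tumour cells, and treatment was recorded as starting on day 7 to 10 at a tumour volume of 100 mm3. The schedule on record was 2 doses per week for 2 to 3 weeks. Antibody was given at 200 ug per mouse, and since the LGG-only groups have no antibody on record, they differ from IgG in that respect as well. Tumour-bearing mice were pooled before they were divided into groups. The labels do not say that the 3 libraries of a group came from separate animals, so p-values may measure technical spread only.

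Each library held 24531528 to 49272593 reads in the genes of the table. Myd88 itself ranged over 1723 to 2232 normalised counts in wild type (12 libraries) and over 697.3 to 1837 in the 12 libraries labelled knockout, so that 1 gene-level count does not show the deletion and the genotype is given here as labelled. Its knockout means were 1271 with IgG, 1394 with anti-PD-1, 844.5 with LGG and 749.4 with the combination. In wild type they were 1900, 1907, 2102 and 1820 in the same order. The Y-linked gene Ddx3y was at 1241 to 2136 normalised counts in all 12 libraries labelled knockout and at 4.50 or less in the 12 wild-type libraries, although all mice were recorded as female, and genotype and this difference cannot be told apart. On the second principal component the 3 knockout anti-PD-1 libraries were scattered (-25.1, 16.48 and -51.35 for replicates 1 to 3). Knockout LGG replicate 2 (-46.05) lay away from replicates 1 (-10.24) and 3 (1.11). Knockout anti-PD-1 replicates 2 and 3 and knockout LGG replicate 2 were left out together and are called the 3 libraries that stood apart. Values that moved most without them are given beside the results that rest on them. For knockout anti-PD-1 this leaves replicate 1 alone, which is then assumed to vary like the other groups. Its summed Cxcl1, Cxcl2 and Cxcl3 per kilobase of transcript (8612) lay above those of replicates 2 and 3 (6935 and 6733). Of 11 markers of conventional dendritic cells, 10 were listed and none was at 0 in a whole group. Itgax, which encodes CD11c, had means of 9828 (wild-type LGG) to 52210 (knockout combination) normalised counts over the 8 groups. Against IgG its mean was lower with LGG in wild type (23090.5 to 9828) and higher in the knockout (36783 to 45009). Flt3, a receptor of conventional dendritic cells, had means of 8.09 (knockout IgG) to 639.7 (wild-type LGG), while the monocyte and macrophage gene Csf1r had means of 3620 to 20487. The summed 10 dendritic cell markers ran from 217371 to 243410 in wild-type IgG and 279545 to 328204 in wild-type LGG. In the knockout they ran from 212951 to 228562 with IgG and 238580 to 380568 with LGG. The largest members were Cd74, H2-Ab1 and H2-Aa (means of 107770, 42276 and 32047 in wild-type IgG). Single markers went both ways with LGG in wild type. Itgax, Sirpa (18302 to 12286) and Clec9a (213.1 to 23.7) had lower means. The other listed markers had higher ones, such as Zbtb46 (413.9 to 2234) and Xcr1 (14.5 to 187.8). In such bulk samples, fewer cells of a type and less RNA per cell cannot be told apart.

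Of the 6 genes, 5 lie on mouse chromosome 5 (GRCm38, the build named mm10 in the submitters' processing notes). Cxcl3 (90786103 to 90789600), Cxcl1 (90891241 to 90893115) and Cxcl2 (90903871 to 90905938), all on the plus strand, lie within 119836 bp. Cxcl9 (92321347 to 92328079) and Cxcl10 (92346638 to 92348889), on the minus strand, lie within 27543 bp. Cxcl16 lies on chromosome 11 (70453983 to 70459984, minus strand). The 220 bases from 250 to 31 upstream of the RefSeq start (GRCm38.p6) were matched for 5 of the 6 and are shown because the genes of each cluster moved together in part and apart in part. Capitals mark the longest run of bases common to the windows of Cxcl1, Cxcl2 and Cxcl3, and that common to Cxcl9 and Cxcl10, on the genes' own strands. The windows are chr5:90890995-90891214 (plus strand), chr5:90903649-90903868 (plus), chr5:90785851-90786070 (plus), chr5:92328110-92328329 (minus) and chr5:92348920-92349139 (minus), each written 5′ to 3′ along its gene's strand.
Cxcl1: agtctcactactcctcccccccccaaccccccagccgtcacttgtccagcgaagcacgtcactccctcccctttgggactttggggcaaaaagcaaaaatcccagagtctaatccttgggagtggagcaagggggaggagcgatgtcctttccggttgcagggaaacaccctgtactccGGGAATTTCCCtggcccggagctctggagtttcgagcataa
Cxcl2: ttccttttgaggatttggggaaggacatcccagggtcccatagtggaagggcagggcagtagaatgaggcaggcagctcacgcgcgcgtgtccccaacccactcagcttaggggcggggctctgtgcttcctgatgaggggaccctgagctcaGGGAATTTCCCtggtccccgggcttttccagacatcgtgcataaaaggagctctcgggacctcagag
Cxcl3: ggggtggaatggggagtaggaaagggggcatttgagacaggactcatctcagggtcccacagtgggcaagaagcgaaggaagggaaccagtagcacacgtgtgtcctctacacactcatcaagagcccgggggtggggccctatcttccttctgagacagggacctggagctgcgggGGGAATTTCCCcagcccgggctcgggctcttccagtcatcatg
Cxcl9: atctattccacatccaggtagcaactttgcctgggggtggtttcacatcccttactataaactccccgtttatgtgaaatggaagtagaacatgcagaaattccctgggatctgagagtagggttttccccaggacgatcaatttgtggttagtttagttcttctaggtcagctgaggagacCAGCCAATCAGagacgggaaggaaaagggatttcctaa
Cxcl10: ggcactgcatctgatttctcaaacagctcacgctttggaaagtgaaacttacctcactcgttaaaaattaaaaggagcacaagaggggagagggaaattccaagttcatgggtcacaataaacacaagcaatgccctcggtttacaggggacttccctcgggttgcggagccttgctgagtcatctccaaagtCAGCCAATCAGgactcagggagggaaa

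Cxcl1, Cxcl2 and Cxcl3 share the 11-base run GGGAATTTCCC, of the kind that NF-kB is known to bind. It begins 71, 97 and 73 bases upstream of their RefSeq starts, which differ from the gene starts printed above, most for Cxcl2. Of 32851 promoter windows of the same length, 13 (0.0396%) hold it on either strand. Cxcl9 and Cxcl10 share the 11-base run CAGCCAATCAG, beginning 68 and 57 bases upstream, which 209 of the windows (0.636%) hold. The windows of Cxcl1 and Cxcl2 share 14 bases, GGGAATTTCCCTGG. The runs were found as the longest common stretches and were not searched for as motifs. The marking therefore does not show that sites of either kind are absent from the other windows, Cxcl9 and Cxcl10 included. They describe these letters, and binding was not measured.

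LGG against IgG in wild-type cells addresses the response to the bacterium in the presence of Myd88. All 6 genes rose, by 7.44-fold (Cxcl16) to 55.5-fold (Cxcl1), where 27.4% of the 12749 genes tested rose and 28.2% fell (called at an adjusted p below 0.05, limma with Benjamini-Hochberg adjustment over all genes tested). Their median log2 change was 4.48, beside -0.0032 over all genes. The neutrophil attractants Cxcl1 and Cxcl3 had the largest changes of the 6. Errors after a log2 change are standard errors of the fit, and an error beside a mean is the SD of 3 libraries.

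Cxcl1, at 202.5, 229.5 and 204.5 normalised counts in the 3 wild-type IgG libraries, stood at 11966, 12249 and 11231 with LGG. Its log2 change was 5.79 ± 0.11 (adjusted p = 6.21e-19, limma). The lowest library with LGG lay far above the highest with IgG. Cxcl2, the most abundant of the 6, stood at 3198, 3034 and 2651 with IgG and at 60317, 60971 and 54699 with LGG (19.8-fold, log2 4.31 ± 0.09). Cxcl3 stood at 529.0, 538.4 and 458.6 with IgG and at 26072, 25849 and 23213 with LGG (49.2-fold, log2 5.62 ± 0.12). For both genes the groups lay apart and replicate 3 was the lowest library of either group.

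Cxcl10 stood at 127.4, 108.4 and 87.0 normalised counts with IgG and at 2743, 2772 and 2563 with LGG (25.1-fold, log2 4.65 ± 0.16). Cxcl9 was the least abundant, at 23.9, 17.2 and 28.2 with IgG and 311.0, 346.5 and 264.9 with LGG (13.0-fold, log2 3.70 ± 0.53). These rest on 19 to 25 reads per IgG library, which makes the Cxcl9 change the least precise of the 6. Cxcl16 stood at 2058, 2013 and 2348 with IgG and at 16674, 16931 and 14224 with LGG (7.44-fold, log2 2.90 ± 0.29). The IgG and LGG ranges lay apart for all 3 genes.

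**Figure D1:**
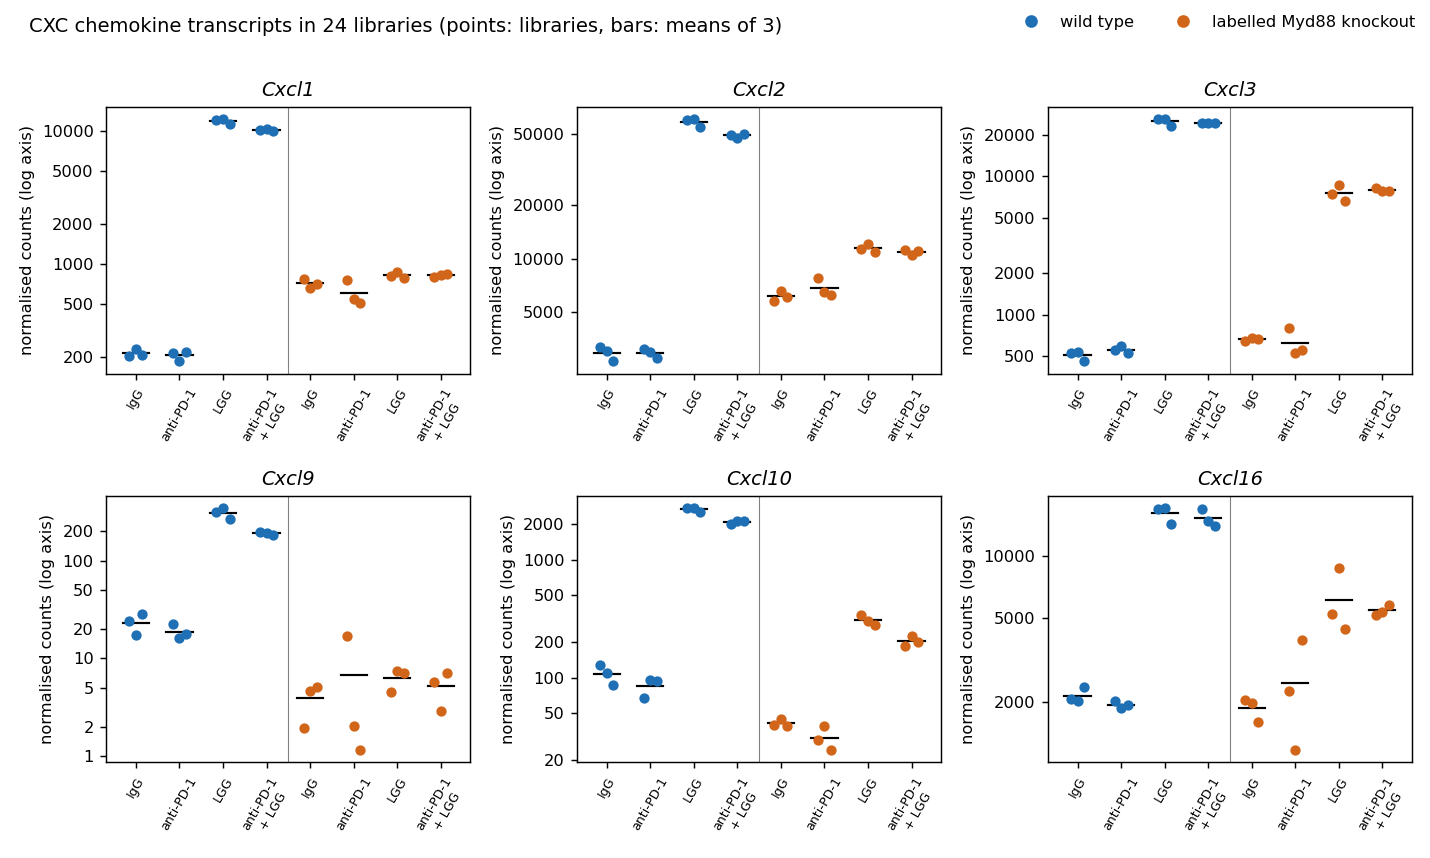
Normalised counts (log axes, a separate scale for each gene) of the 6 CXC chemokine genes in the 24 libraries, by treatment and genotype. Points are libraries and bars are means of 3. In wild-type cells all 6 genes are higher in each of the 6 libraries with LGG than in each of the 6 without it, and in knockout cells Cxcl1 and Cxcl9 stay near their level without LGG.

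LGG with anti-PD-1 against anti-PD-1 alone gave a second view of LGG in wild-type cells. Its means come from other libraries, but all 24 libraries share 1 estimate of the spread, so the errors are not independent. All 6 rose again, where 27.7% of genes rose. The log2 changes were 5.62 ± 0.11 for Cxcl1, 4.06 ± 0.09 for Cxcl2, 5.44 ± 0.12 for Cxcl3, 3.28 ± 0.53 for Cxcl9, 4.61 ± 0.16 for Cxcl10 and 2.96 ± 0.29 for Cxcl16. Cxcl1, for example, stood at 212.6, 184.0 and 217.4 normalised counts with anti-PD-1 and at 10090, 10235 and 9995 with the combination. The 2 groups lay apart for each of the 6 genes.

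The same comparisons in the libraries labelled knockout asked how far the LGG response depends on Myd88. The neutrophil attractants split. Cxcl3 rose 11.3-fold with LGG (log2 3.50 ± 0.12), Cxcl2 rose 1.86-fold (log2 0.89 ± 0.09), and Cxcl1 did not pass the test (log2 0.20 ± 0.11, 95% interval -0.03 to 0.43, adjusted p = 0.181, limma). In all, 4 of 6 genes rose and 2 did not pass, where 18.1% of genes rose and 14.2% fell, with a median log2 change of 1.28 beside 0.00 over all genes.

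Cxcl3 stood at 649.3, 680.1 and 668.9 normalised counts in knockout IgG and at 7439, 8712 and 6674 with LGG. Cxcl2 stood at 5817, 6576 and 6071 with IgG and at 11281, 12135 and 10855 with LGG. Cxcl1 stood at 769.9, 659.1 and 699.9 with IgG and at 805.8, 869.0 and 773.7 with LGG. The ranges lay apart for all 3 genes, and for Cxcl1 the highest IgG library and the lowest LGG library were nearly level.

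Cxcl10 rose 7.32-fold (log2 2.87 ± 0.16), from 39.8, 44.4 and 38.9 normalised counts with IgG to 337.3, 301.9 and 281.3 with LGG. Cxcl9 stayed at 3, 4 and 7 reads with IgG and 5, 6 and 7 reads with LGG per library, and its change did not pass (log2 0.62 ± 0.53, 95% interval -0.48 to 1.73). At these read counts the interval is wide, and its upper end lies below the wild-type change of 3.70. Cxcl16 rose 3.17-fold (log2 1.66 ± 0.29), from 2028, 1981 and 1604 to 5233, 8757 and 4472 normalised counts. Replicate 2, which stood apart from its group, is the highest of the Cxcl16 LGG libraries, and without the 3 libraries that stood apart the log2 change was 1.38.

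With anti-PD-1 in the background, 5 of 6 genes rose in the knockout-labelled libraries, where 19.7% of genes rose. Cxcl3 rose by 3.69 ± 0.12, Cxcl10 by 2.71 ± 0.16, Cxcl16 by 1.33 ± 0.29 and Cxcl2 by 0.68 ± 0.09 on the log2 scale. Cxcl1 rose by 0.47 ± 0.11 (adjusted p = 0.00258, limma), from 747.7, 541.9 and 505.6 to 800.1, 816.3 and 831.5 normalised counts. Without the 3 libraries that stood apart, which leaves 1 anti-PD-1 library, Cxcl1 had a log2 change of 0.13. Cxcl1 and Cxcl16 also lost their calls when only the libraries compared were fitted, which left 3 of 6. Cxcl9 did not pass (0.28 ± 0.53), and its anti-PD-1 libraries held 16, 2 and 1 reads. Without the 3 libraries its log2 difference was -1.60, against the single library with 16 reads.

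**Figure D2:**
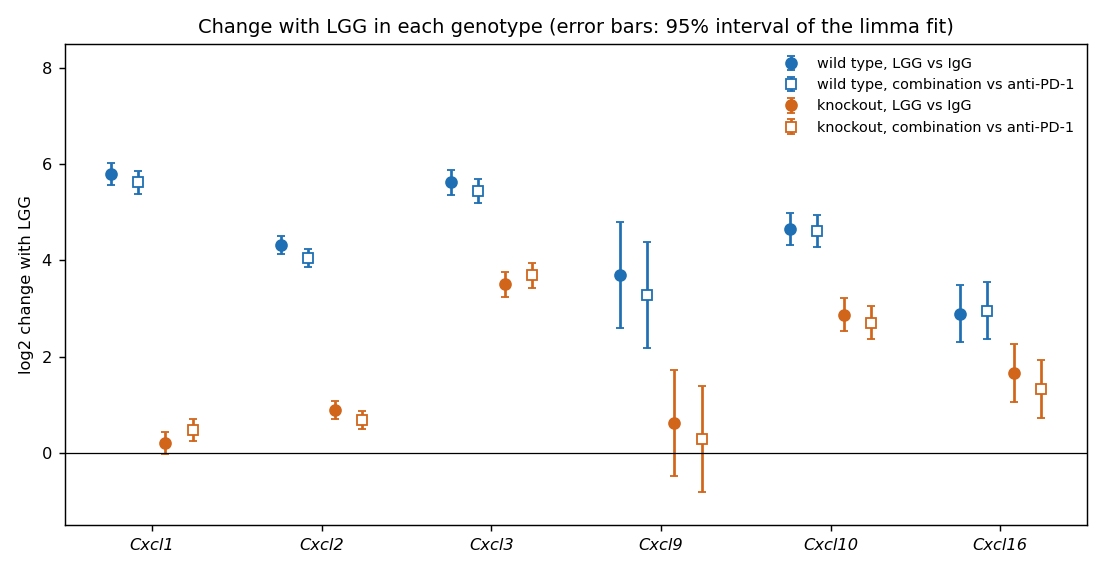
Log2 change with LGG for each gene, in wild-type (blue) and knockout-labelled (orange) cells, against IgG (filled circles) and for the combination against anti-PD-1 (open squares), with 95% intervals from the limma fit. Blue points run from 2.90 to 5.79, while the orange ones run from 0.20 for Cxcl1 to 3.69 for Cxcl3.

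The difference of the LGG effects between genotypes was tested directly. Every one of the 6 was lower in the knockout, where 15.4% of genes were lower and 19.5% higher. The difference was -5.59 ± 0.16 on the log2 scale for Cxcl1, -3.42 ± 0.13 for Cxcl2, -2.12 ± 0.17 for Cxcl3, -3.07 ± 0.74 for Cxcl9, -1.78 ± 0.23 for Cxcl10 and -1.23 ± 0.40 for Cxcl16. Adjusted p-values ran from 3.73e-15 for Cxcl1 to 0.0224 for Cxcl16 (limma). The Cxcl16 difference lost its call without knockout IgG replicate 1 (-1.17, adjusted p = 0.0503), knockout LGG replicate 1 (-1.15, 0.0540) or knockout LGG replicate 3 (-1.03, 0.0658).

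Expressed as a share of the wild-type log2 change, the knockout-labelled cells showed 62.3% for Cxcl3, 61.8% for Cxcl10, 57.4% for Cxcl16, 20.7% for Cxcl2, 16.8% for Cxcl9 and 3.5% for Cxcl1. On chromosome 5 the share of Cxcl3 thus stood above those of its neighbours Cxcl1 and Cxcl2, and that of Cxcl10 above that of its neighbour Cxcl9, which were not tested against each other. Without the 3 libraries that stood apart the shares were 60.5% for Cxcl3, 62.0% for Cxcl10, 47.6% for Cxcl16, 19.7% for Cxcl2, 13.8% for Cxcl9 and 2.71% for Cxcl1. With anti-PD-1 the shares were 67.8% for Cxcl3, 58.7% for Cxcl10, 44.8% for Cxcl16, 16.7% for Cxcl2, 8.63% for Cxcl9 and 8.32% for Cxcl1. Without the 3 libraries those with anti-PD-1 were 60.8% for Cxcl3, 59.2% for Cxcl10, 43.5% for Cxcl16, 11.9% for Cxcl2, -48.7% for Cxcl9 and 2.24% for Cxcl1. The differences of the LGG effects with anti-PD-1 were all lower too, from -5.15 ± 0.16 for Cxcl1 to -1.63 ± 0.40 for Cxcl16, where 17.2% of genes were lower. For Cxcl9 it was -3.0 ± 0.74, and -4.88 without the 3 libraries.

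Without LGG the genotypes differed in the opposite direction for the neutrophil attractants. In IgG libraries 3 of 6 genes were higher in the knockout (19.1% of all genes were) and 2 were lower (20.0% of all genes were). Cxcl1 was 3.33-fold higher (log2 1.74 ± 0.11), Cxcl2 was 2.08-fold higher (1.06 ± 0.09) and Cxcl3 was 1.31-fold higher (0.39 ± 0.12, adjusted p = 0.0151, limma). The knockout libraries of these 3 genes lay above the wild-type libraries without overlap. The Cxcl3 call was lost without wild-type IgG replicate 3 (0.32, adjusted p = 0.0797).

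The interferon-induced genes went the other way. Cxcl9 was lower by a log2 difference of -2.34 ± 0.53 and Cxcl10 by -1.35 ± 0.16 (2.56-fold lower), also without overlap. Cxcl16 did not pass (-0.20 ± 0.29). With anti-PD-1, Cxcl1 (1.53 ± 0.11) and Cxcl2 (1.21 ± 0.09) were higher, where 24.1% of genes were, and Cxcl9 (-2.00 ± 0.53) and Cxcl10 (-1.44 ± 0.16) were lower, where 21.7% of genes were. The Cxcl9 difference was -0.12 without the 3 libraries that stood apart, which leaves the knockout anti-PD-1 library with 16 reads. Cxcl3 did not pass (0.14 ± 0.12), and with that 1 knockout library its log2 difference was 0.53.

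With LGG all 6 genes were lower in the knockout than in wild type, where 27.0% of all genes were. The log2 differences were -3.85 ± 0.11 for Cxcl1, -2.36 ± 0.09 for Cxcl2, -1.73 ± 0.12 for Cxcl3, -5.42 ± 0.53 for Cxcl9, -3.13 ± 0.16 for Cxcl10 and -1.43 ± 0.29 for Cxcl16. In the combination they ran from -5.00 ± 0.53 for Cxcl9 to -1.46 ± 0.29 for Cxcl16, all lower, where 27.7% of genes were. Cxcl1 was thus higher in the knockout without LGG and 14.5-fold lower with it.

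**Figure D3:**
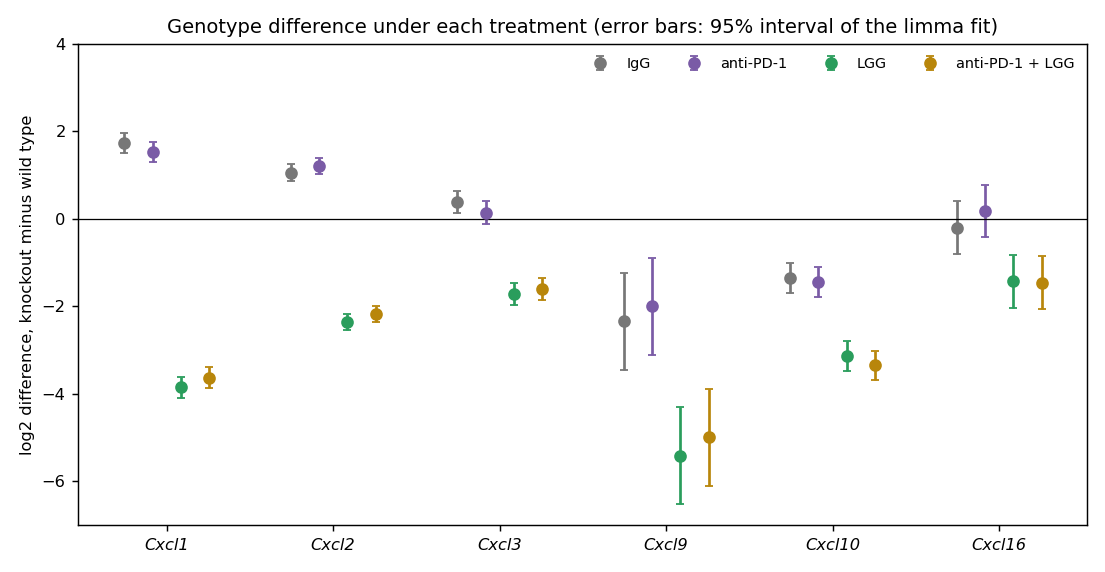
Log2 difference, knockout minus wild type, of each gene under each of the 4 treatments, with 95% intervals from the limma fit. Without LGG (grey, purple) Cxcl1 and Cxcl2 lie above 0 and Cxcl9 and Cxcl10 below it, and with LGG (green, gold) all 6 genes lie below 0.

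Levels in these genotype comparisons moved beside markers of other cells. All 8 T cell markers and all 5 listed NK cell markers were lower in knockout IgG than in wild-type IgG, where 20.0% of all genes were. The summed T cell markers ran from 12121 to 12943 normalised counts in wild-type IgG, 13466 to 14758 in wild-type LGG, 976 to 1108 in knockout IgG and 3602 to 5122 in knockout LGG. The summed NK cell markers ran from 34222 to 36262, 49714 to 57176, 3142 to 3649 and 10753 to 16259 in the same order. Most of that sum was Gzma, a granzyme gene (23948 in wild-type IgG and 42898 in wild-type LGG), whereas Klrb1c, which encodes NK1.1, fell from 170.2 to 12.6 and Eomes, a transcription factor gene, from 1069 to 358.3. Ifng, which encodes interferon-gamma and is made by such cells, had means of 936.9, 13829, 68.6 and 387.6. The summed 11 macrophage and monocyte markers ran from 108146 to 121352 in wild-type IgG and from 32039 to 34462 in wild-type LGG, and from 93896 to 98301 in knockout IgG and 77679 to 94440 in knockout LGG. The 12 listed neutrophil markers summed to 5742 to 5829 in wild-type IgG, 3351 to 3507 in wild-type LGG, 5508 to 5840 in knockout IgG and 7246 to 7700 in knockout LGG. Of these sums Mmp8 alone had means of 3241, 944.8, 4860 and 6173 in the same order. Other members went another way, with Mmp9 at 866.6, 929.3, 312.3 and 543.8 and Cxcr2 at 392.7, 272.7, 88.0 and 154.0. No listed marker was at 0 in a whole group. The part of these cells in the chemokine differences was not tested.

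Anti-PD-1 alone moved none of the 6 genes past the test in wild-type cells (0 of 6, where 0.0314% of genes passed) or in knockout-labelled cells (0 of 6, where 1.8% passed). In wild type 1028 genes had an unadjusted p below 0.05 and 4 were called by limma, 9 by edgeR and 207 by DESeq2. In the knockout the counts were 1992, 229, 192 and 602. With only the libraries compared, limma called 1760 genes in wild type and 0 in the knockout, with 0 of the 6 in each. Without the 3 libraries that stood apart, it called 1079 in wild type, again with 0 of the 6. The number called in wild type thus depended on which libraries set the spread. The wild-type changes ran from -0.33 ± 0.16 for Cxcl10 to 0.14 ± 0.12 for Cxcl3, and the knockout ones from -0.42 ± 0.16 for Cxcl10 to 0.23 ± 0.29 for Cxcl16. Without the 3 libraries that stood apart, which leaves 1 knockout anti-PD-1 library, the knockout log2 changes were 0.34 for Cxcl2 and 1.95 for Cxcl9. With all libraries Cxcl9 was at 0.07 in the knockout. The intervals allow changes in Cxcl9 of -1.38 to 0.83 in wild type.

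Adding anti-PD-1 to LGG also gave 0 of 6 calls in each genotype, where 0.0628% of genes passed in wild type and 0.275% in the knockout. In wild type 827 genes had an unadjusted p below 0.05 and 8 were called by limma, 11 by edgeR and 81 by DESeq2. In the knockout the counts were 879, 35, 55 and 201. Cxcl10 had the lowest p of the 6 in the knockout, with a log2 difference of -0.59 ± 0.16 (adjusted p = 0.186, limma). DESeq2 called Cxcl10 in both genotypes, at -0.37 (adjusted p = 0.0384) in wild type and -0.59 (adjusted p = 0.000386) in the knockout, and edgeR called no member. Without the 3 libraries limma called Cxcl1 (-0.22, adjusted p = 0.0479) and Cxcl2 (-0.25, adjusted p = 0.0268) in wild type and Cxcl10 (-0.60, adjusted p = 0.0183) in the knockout. In wild type the Cxcl10 libraries stood at 2743, 2772 and 2563 with LGG and at 2003, 2133 and 2119 with the combination, without overlap. Cxcl1, Cxcl2 and Cxcl9 were also lower with the combination in wild type without overlap, while Cxcl3 and Cxcl16 overlapped. With only the libraries compared, limma called 2 of the 6 and 145 genes in all in wild type, and 0 genes in the knockout.

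Levels of different genes were compared per kilobase of transcript, as deposited counts divided by the length of the principal transcript. Cxcl2 was the highest and Cxcl9 the lowest of the 6 in all 8 groups. In wild-type LGG the order was Cxcl2 (52897 ± 3109 per kb), Cxcl3 (24650.2 ± 1565), Cxcl1 (12398 ± 551), Cxcl16 (5907 ± 554), Cxcl10 (2461 ± 103) and Cxcl9 (106 ± 14.2). In wild-type IgG Cxcl16 (793 ± 67.5) stood second, above Cxcl3 (501 ± 42.9) and Cxcl1 (223 ± 15.8). In knockout LGG Cxcl3 (7488 ± 1013) stood second, then Cxcl16 (2280 ± 847), followed by Cxcl1 (856 ± 50.9).

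Over the 8 groups, Cxcl1 ran from 11816 ± 525 normalised counts in wild-type LGG and 10107 ± 121 in the wild-type combination to 816 ± 48.5 in knockout LGG, 816 ± 15.7 in the knockout combination, 709.6 ± 56.1 in knockout IgG, 598 ± 131 in knockout anti-PD-1, 212.1 ± 15 in wild-type IgG and 205 ± 18.1 in wild-type anti-PD-1. Libraries of neighbouring groups overlapped between the knockout groups with LGG, between those without LGG, and between wild-type IgG and anti-PD-1. Cxcl2 overlapped at the same 3 places, with 49295 ± 1210 in the wild-type combination, 11424 ± 652 and 10919 ± 393 in the knockout LGG and combination groups, 6854 ± 828 in knockout anti-PD-1 and 2962 ± 175 in wild-type anti-PD-1. Cxcl3 was at 24254 ± 37.9 in the wild-type combination and 7968 ± 238 in the knockout combination, and its 4 groups without LGG, from 508.7 ± 43.6 to 666 ± 15.6, overlapped in turn. Every gene was thus highest in the wild-type groups with LGG, and Cxcl1, Cxcl2 and Cxcl3 were lowest in the wild-type groups without it.

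Cxcl9 was at 307 ± 40.9 and 189 ± 7.74 normalised counts in wild-type LGG and the wild-type combination and at 23.1 ± 5.58 and 18.8 ± 3.30 in wild-type IgG and anti-PD-1. Its 4 knockout groups, from 3.89 ± 1.69 to 6.73 ± 8.92, overlapped with each other. Cxcl10 was at 2693 ± 113 and 2085 ± 71.4 in the wild-type groups with LGG, 307 ± 28.3 and 204 ± 20.7 in the knockout groups with LGG, 108 ± 20.2 and 85.1 ± 15.4 in the wild-type groups without LGG and 41.0 ± 2.97 and 30.8 ± 7.27 in the knockout groups without it. Only the wild-type IgG and anti-PD-1 groups overlapped among its neighbours. Cxcl16 was at 15943 ± 1494 and 15084 ± 1475 in the wild-type groups with LGG, and at 6154 ± 2286 and 5478 ± 304 in the knockout groups with LGG, with overlap in each pair. Its groups without LGG lay from 1871 ± 232 to 2457 ± 1405, the last being knockout anti-PD-1 with libraries at 2244, 1171 and 3956.

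The make-up of the neutrophil attractants differed with LGG. Cxcl2 held 78.7% ± 0.937 of their summed level per kb in wild-type IgG and 58.8% ± 0.117 in wild-type LGG. Cxcl3 went from 14.8% ± 0.359 to 27.4% ± 0.270, and Cxcl1 from 6.59% ± 0.622 to 13.8% ± 0.240. In the knockout Cxcl3 went from 9.44% ± 0.224 with IgG to 40.1% ± 1.86 with LGG, while Cxcl1 went from 10.8% ± 1.29 to 4.60% ± 0.133. The share of Cxcl1 was thus higher with LGG in wild type and lower with LGG in the knockout, without overlap of the libraries in either.

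The sum of Cxcl1, Cxcl2 and Cxcl3 over the sum of Cxcl9 and Cxcl10, per kb, described the balance of the classes. It was 32.2 ± 2.81 in wild-type IgG, with libraries from 29.0 to 34.2, and 35.0 ± 0.478 in wild-type LGG, with libraries from 34.5 to 35.4. In the knockout it was 179 ± 5.88 with IgG (172.7 to 184.2) and 66.2 ± 7.08 with LGG (59.2 to 73.3). The wild-type anti-PD-1 and combination groups had 41.7 ± 8.77 and 40.1 ± 1.59, and the knockout ones had 251 ± 54.1 and 99.4 ± 12.3. Every knockout-labelled library lay above every wild-type library (lowest 59.2 against highest 51.7), and within the knockout every library with LGG lay below every library without it. These ratios are a description, with no test. Cxcl10 was 4.62 to 205.1 times Cxcl9 per kb over the 24 libraries, so the ratios mainly set the neutrophil attractants against Cxcl10.

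**Figure D4:**
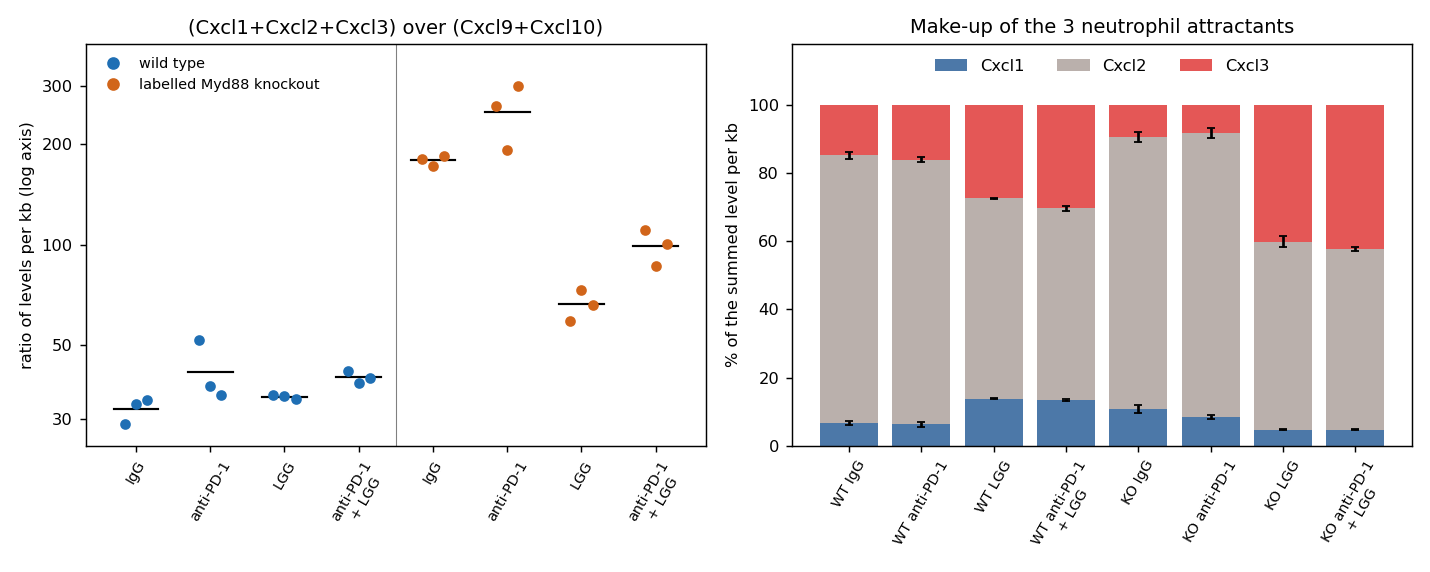
Left, the summed level per kb of Cxcl1, Cxcl2 and Cxcl3 over that of Cxcl9 and Cxcl10 in each library (log axis), with bars for means of 3. Right, the mean percent of the summed level per kb that each neutrophil attractant holds in each group, with standard deviations of the Cxcl1 share (lower bars) and the Cxcl2 share (upper bars). The ratio is near 32.2 to 41.7 in wild type and higher, 66.2 to 251, in the knockout, and the Cxcl3 share is 40.1% or more in the knockout groups with LGG.

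Over the 24 libraries the log2 levels of Cxcl1 and Cxcl2 had a Pearson r of 0.987, the highest of the 15 pairs, and those of Cxcl3 and Cxcl9 had 0.608, the lowest. The libraries share the treatment groups, so these values describe the group pattern. Of 10859 other genes, those most like Cxcl1 were Cd14 (0.988), Rabgef1 (0.983) and Ccl3 (0.979). Those most like Cxcl2 were Cd14 (0.992), Rabgef1 (0.989) and Pvr (0.984). Cd14, the lipopolysaccharide co-receptor gene, went from 2719 to 28414 normalised counts with LGG in wild type and from 4667 to 6683 in the knockout. Those most like Cxcl3 were Il1rn, the interleukin-1 receptor antagonist (0.994), Tnip1 (0.994) and Maff (0.992). Those most like Cxcl9 were Tspyl3 (0.973), Usp11 (0.971) and Cytip (0.968), those most like Cxcl10 Irf9 (0.991), Rnf114 (0.989) and Stx11 (0.989), and those most like Cxcl16 Xaf1 (0.994), Mapkapk2 (0.992) and Fas (0.989).

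Other CXC chemokine genes of the table moved in several directions. Cxcl5 rose with LGG in both genotypes, from 20.4 to 251.7 normalised counts in wild type (log2 3.62 ± 0.26) and from 7.54 to 43.4 in the knockout (2.39 ± 0.26). Cxcl11, the third CXCR3 ligand, rose in wild type from 0 to 0.903 normalised counts per IgG library to 42.4 to 60.7 with LGG, and stayed at 0 to 2.45 in the knockout with LGG. Cxcl14 fell in wild type, from 275.6 to 22.9 (log2 -3.70 ± 0.26), and did not pass in the knockout (-0.47 ± 0.26). Ppbp, which encodes a platelet chemokine, had log2 rises of 0.62 ± 0.11 in wild type and 2.00 ± 0.11 in the knockout, and Pf4, another platelet chemokine gene, did not pass in either genotype. The LGG effect was thus higher in the knockout for Ppbp (difference 1.38 ± 0.16) and Cxcl14 (3.23 ± 0.37). It was lower for Cxcl5 (-1.23 ± 0.37) and Cxcl11 (-4.57 ± 0.80), and Pf4 did not pass (1.07 ± 0.45).

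Of the receptors, 4 of the 8 fixed were listed. Cxcr2, the receptor of the neutrophil attractants, fell in wild type (-0.52 ± 0.18) and rose in the knockout (0.78 ± 0.18), and was lower in knockout than wild-type IgG (-2.15 ± 0.18). Cxcr6, the receptor of CXCL16, rose by 1.41 ± 0.17 in wild type and 2.01 ± 0.17 in the knockout and was also lower in knockout IgG (-3.47 ± 0.17). Cxcr4 rose by 0.80 ± 0.15 in wild type and was lower with LGG in the knockout (-0.47 ± 0.15). Cxcr5 rose by 3.51 ± 0.37 in wild type and did not pass in the knockout (0.54 ± 0.37).

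With LGG in wild type, 15 of 19 fixed NF-kB pathway genes rose (27.4% of all genes did) and 1 fell (28.2% of all genes did), and the other 3 did not pass. Their median log2 change was 1.53, beside -0.0032 over all genes. In the knockout 13 rose, 1 fell and 5 did not pass (median 0.77), where 18.1% of all genes rose and 14.2% fell. Nfkbie rose by 2.38 ± 0.09 in wild type and 2.51 ± 0.09 in the knockout, and Relb by 1.95 ± 0.16 and 2.11 ± 0.16. Nfkbia, the main inhibitor gene, rose by 2.75 ± 0.13 and 1.05 ± 0.13. The LGG effect was lower in the knockout for 9 of the 19 and higher for none, where 15.4% of all genes were lower and 19.5% higher. Nfkbia differed by -1.69 ± 0.18, Nfkb2 by -0.83 ± 0.12, Ikbkb, a kinase subunit gene, by -0.73 ± 0.08, and Nfkbie (0.13 ± 0.12) and Relb (0.16 ± 0.23) did not pass.

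With LGG in wild type, 14 of 18 fixed interferon signalling genes rose, 1 fell and 3 did not pass (median 1.07), and 10 rose, 1 fell and 7 did not pass in the knockout (median 0.45), beside 27.4% and 18.1% of all genes that rose in the 2 genotypes. Irf7 rose by 3.73 ± 0.17 and 2.54 ± 0.17, Ifng by 3.88 ± 0.18 and 2.45 ± 0.18, and Irf9 by 1.07 ± 0.06 and 0.56 ± 0.06. The LGG effect was lower in the knockout for 10 of the 18, with Irf8 at -2.45 ± 0.07, and higher for none (15.4% and 19.5% of all genes). In IgG, 10 of the 18 were lower and 2 higher in the knockout (20.0% and 19.1% of all genes), with Ifng at -3.75 ± 0.18 and Irf1 at -1.05 ± 0.09.

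Of 6 fixed regulators of messenger RNA stability, 2 rose with LGG in wild type, 1 fell and 3 did not pass, where 27.4% of all genes rose and 28.2% fell. Zc3h12a, which encodes the RNase Regnase-1, rose by 2.36 ± 0.06 in wild type and 0.17 ± 0.06 in the knockout. Of 5 proteases that process chemokines, 1 rose, 3 fell and 1 did not pass in wild type, and 4 rose and 1 fell in the knockout, where 18.1% of all genes rose and 14.2% fell. Adam10, whose product sheds CXCL16 from the membrane, fell in both (-1.32 ± 0.14 and -0.80 ± 0.14), and Dpp4, whose product clips CXCL9 and CXCL10, rose in both (1.36 ± 0.12 and 0.90 ± 0.12).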

How the data were processed

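The authors deposited a table of normalised counts (signal: reads divided by a factor for each library) for 12767 genes in 24 libraries. STAR 2.4.0, HTSeq 0.6.1, DESeq2 (its version is not given in the sources used here) and the build mm10 are named, per the submitters' processing notes. The values are whole multiples of a step per library, and dividing by it returned whole reads for 100% of values within 0.001.

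limma 3.58.1 (R 4.3.3) was run on log2(value + 1) for 12749 genes whose mean reached 10, with 1 mean per group over all 24 libraries, a mean-variance trend and robust moderation. P-values were two-sided and adjusted by Benjamini and Hochberg within each of 14 comparisons. Fold changes are therefore on the log2(value + 1) scale, which understates the change of low genes such as Cxcl9. Counts were not used as the main test because the deposited values are normalised. Alternatives were a pseudocount of 8, no filter, TMM scaling, only the libraries compared, a replicate block, 3 libraries left out, count tests on the whole reads (DESeq2 1.42.0, edgeR 4.0.16), and each library left out in turn. The fit was tested on simulated data.

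The 6 genes and the fixed lists were chosen with earlier results of these data known. Other genes named include all listed CXC chemokine and CXC receptor genes, but only part of the stability regulators and proteases. For lists of more than 8 genes they are the 4 with the smallest p in a comparison described. Further genes are the 3 most correlated with each chemokine among those with a mean of at least 50. The rest check the labels or mark cell types. Lengths are of the principal transcript in GENCODE M21. Promoter windows are from RefSeq.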

Additional observations from a re-analysis of the deposited data

Results flagged for a closer look

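The effect of LGG differed between the genotypes for each of the 6 genes, tested as the knockout change minus the wild-type change (limma, adjusted over all genes). Against IgG the log2 difference was -5.59 for Cxcl1, -3.42 for Cxcl2, -2.12 for Cxcl3, -3.07 for Cxcl9, -1.78 for Cxcl10 and -1.23 for Cxcl16. For the combination against anti-PD-1 it was -5.15 for Cxcl1, -3.38 for Cxcl2, -1.75 for Cxcl3, -3.0 for Cxcl9, -1.91 for Cxcl10 and -1.63 for Cxcl16, and Cxcl9 was at -4.88 without the 3 libraries that stood apart. Each was drawn out because the change with LGG was smaller in the libraries labelled knockout. The Y-linked transcripts of those libraries, and their lower T cell and NK cell markers, move with the same contrast, and their part was not tested.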

How the results depend on the processing

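Of 84 log2 values (6 genes, 14 comparisons), 54 were called, and over 8 other settings 427 of their repeats kept direction and call and 5 lost the call. Leaving out single libraries kept 391 and lost 5, and no called value changed sign. Of the 30 values not called, other settings reversed 11 and brought 10 past the threshold, and leaving out single libraries reversed 19 and brought 5.

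The number of the 6 genes called became 3 with only the libraries compared for the combination against anti-PD-1 in the knockout (from 5) and for knockout against wild type with anti-PD-1 (from 4). For anti-PD-1 against IgG in the knockout it was 0 to 2 without single libraries. For the combination against LGG it became 2 in wild type with only the libraries compared, 2 without the 3 libraries and 1 with DESeq2, and 1 in the knockout without the 3 libraries and 1 with DESeq2.

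For the combination against anti-PD-1 in the knockout, Cxcl9 went from 0.28 to -0.0094 with a pseudocount of 8, -1.60 without the 3 libraries, -0.38 with edgeR and -0.40 with DESeq2, and from -0.31 to 1.22 without single libraries. For anti-PD-1 against IgG in wild type, Cxcl2 was -0.0052 with DESeq2 and -0.0743 to 0.0609 without single libraries, and Cxcl1 was -0.098 to 0.0218. In the knockout, Cxcl1 was 0.0782 and Cxcl3 0.273 without the 3 libraries, and without single libraries Cxcl3 was -0.303 to 0.0038, Cxcl9 -0.869 to 0.664 and Cxcl16 -0.199 to 0.679. For the combination against LGG in the knockout, Cxcl1 was -0.0027 with TMM, -0.0044 with edgeR, -0.0025 with DESeq2 and -0.0366 to 0.0471 without single libraries, Cxcl16 was 0.178 without the 3 libraries and -0.307 to 0.178, Cxcl3 -0.0152 to 0.177 and Cxcl9 -0.484 to 0.0346. For knockout against wild type with anti-PD-1, Cxcl3 was -0.0492 to 0.258 and Cxcl16 -0.255 to 0.623, and Cxcl9 lost its call without knockout anti-PD-1 replicate 3 (-1.41, adjusted p = 0.0504, limma). The cause was not tested.

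All genes called, by comparison. LGG in the knockout had 4108, 7830 without the 3 libraries and 2677 with only the libraries compared. The combination against anti-PD-1 in the knockout had 4673, 1245 with only the libraries compared and 3589 to 7544 without single libraries. Anti-PD-1 in wild type had 4, 1760 with only the libraries compared, 1079 without the 3 libraries, 7 with a pseudocount of 8 and 0 with the replicate block, and in the knockout 229, 0, 1140, 161 and 170 in that order and 74 to 4581 without single libraries. The combination against LGG in wild type had 8, 145, 1095, 9 and 5, with 16 under TMM, and in the knockout 35, 0, 1437, 49 and 28. Knockout against wild type had 4977 in IgG, 7936 and 8139 with only the libraries compared and without the 3 libraries, and 5831 with anti-PD-1, 796 with only the libraries compared and 3307 to 8689 without single libraries. The genotype difference of the LGG effect had 4449 and 8010, and with anti-PD-1 4804 and 7239, without the 3 libraries.

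The replicate numbers gave no clear sign of pairing, though groups of 3 libraries cannot exclude it. Deviations of same-numbered libraries correlated from -0.43 to 0.56 between the groups compared (-0.83 to 0.56 over all 84 pairs). No comparison had all 3 pairs above 0.1. With a replicate block no call among the 84 values changed, with Cxcl1 at 5.79 for LGG in wild type. The median of all genes stayed within 0.0583 of 0 on the log2 scale under every setting tried. Depth limits Cxcl9 in the knockout, at 1 to 16 reads per library.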

Other observations

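Of 17 listed chemokine genes outside the CXC family, 8 rose with LGG in wild type, 5 fell and 4 did not pass (median log2 0.30), and 6 rose, 3 fell and 8 did not pass in the knockout. Of all genes 27.4% rose and 28.2% fell in wild type, and 18.1% rose and 14.2% fell in the knockout. Ccl22, a ligand of CCR4 on T cells, rose by 4.26 ± 0.18 in wild type and by 1.76 ± 0.18 in the knockout. Cx3cl1 rose by 1.83 ± 0.11 and 0.93 ± 0.11. Ccl6 fell in wild type (-2.24 ± 0.16) and did not pass in the knockout (-0.30 ± 0.16).

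Of 11 fixed sensing genes, 3 rose with LGG in wild type, 3 fell and 5 did not pass, and 3 rose, 4 fell and 4 did not pass in the knockout. The wild-type counts are at the shares of all genes given above. Tlr2, the receptor for bacterial lipoproteins, rose by 1.75 ± 0.06 in wild type and 1.69 ± 0.06 in the knockout. Il17ra rose by 1.48 ± 0.10 and 0.49 ± 0.10. Tlr4 fell in both (-1.86 ± 0.17 and -0.63 ± 0.17), and so did Tnfrsf1a (-0.72 ± 0.07 and -0.27 ± 0.07).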
